A study of Gallus gallus with 8 samples.

Results

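Immediate early genes are transcribed within minutes of a growth factor, hormone or stress signal without new protein synthesis. The signal usually passes through a kinase cascade to transcription factors already present in the nucleus, such as SRF with its ELK partners and CREB, and the first products are themselves mostly transcription factors, followed by phosphatases and RNA decay factors that end the response. In the ovarian follicle of mammals and birds they are known as early targets of gonadotropins, and Egr1 is induced by luteinizing hormone in rodent granulosa cells. The set described here was EGR1, FOS, JUN, ATF3, MYC, DUSP1, IER2, IER5 and CCN2, and a member was any probe set whose annotated gene symbol was 1 of these 9. Of 13007 genes named on the chicken array 7 were members, with 8 of its 38535 probe sets, 2 for EGR1 and 1 each for FOS, JUN, ATF3, MYC, DUSP1 and CCN2. IER2 and IER5 were not analysed here.

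The samples are labelled as F1 oocytes of hens, taken 24 h before ovulation, and total RNA of each was amplified, labelled with biotin and hybridised to its own Affymetrix array. DPF+ and DPF- come from lines bred in opposite directions and of unequal fertility, whereas HG+ and HG- come from within 1 line whose hens were of unequal fertility. Every group was kept at 20 °C on a day of 14 h light and 10 h dark with free access to a standard layer feed, and no allele or agent is named. Each of the 4 groups has 2 arrays, given as biological replicates with no word on the number of birds behind an array, so the p-values measure the spread between these samples only.

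Levels are given on the log2 scale. A level of 4 was taken as the lower limit of detection, and a probe set was tested when at least 2 of the 8 arrays reached it, which left 12725. On the DPF arrays 11433 to 11700 probe sets reached the limit, and on the HG arrays 11906 to 12092, with no overlap. Against the label, the arrays carried strong granulosa cell signal. All 13 granulosa markers on the array passed, with LHCGR, the luteinizing hormone receptor, at a mean of 11.50 and FOXL2, an ovarian transcription factor, at 11.04. Of 11 oocyte and germ line markers 7 passed, among them DAZL at 7.38, while the oocyte growth factors GDF9 and BMP15, the egg coat gene ZP1 and the germ cell helicase DDX4 did not. None of the 4 red blood cell and 8 leukocyte markers passed. The replicates of DPF+ stood furthest apart, with an SD of their difference over the tested probe sets of 0.746. It was 0.276 in HG+ and 0.282 in HG-, and 0.456 in DPF-. The test used 1 variance per probe set over the 4 groups. Its SEs, intervals and p-values for HG+ against HG- therefore also carried the wider spread of the DPF arrays. Those for DPF+ against DPF- took in the narrower spread of the HG arrays. The source of the hens cannot be told apart from any handling that differed between the DPF and the HG arrays.

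EGR1, JUN, MYC, DUSP1 and CCN2 were detected and FOS and ATF3 were not. The clearest pattern was in EGR1, a zinc finger transcription factor, which was lower on the DPF than on the HG arrays with both of its probe sets. Within the DPF or the HG hens, limma called 0 of the 6 tested member probe sets between fertility groups, and 0 of all 12725 probe sets (0%). An unadjusted p under 5% was found for 781 probe sets (6.14%) between DPF+ and DPF-, CCN2 among them, and for 45 (0.354%) between HG+ and HG-, EGR1 probe set A among them. The values of the 8 probe sets by array are shown in the plot of immediate early genes on the 8 arrays.

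**Figure D1:**
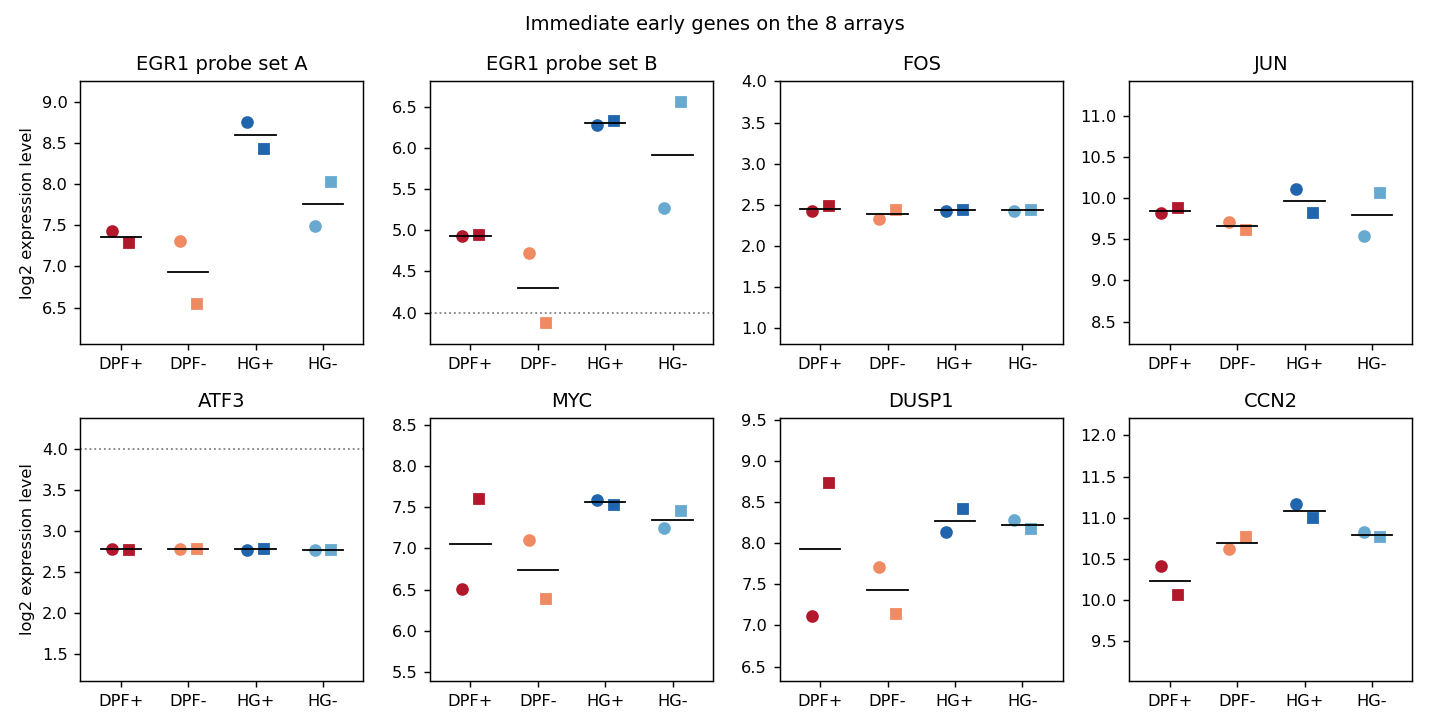
Log2 expression level of each member probe set on the 8 arrays, by group, with a circle for replicate 1, a square for replicate 2, a black bar for the group mean, and a dotted line at the detection limit of 4 where it falls in the panel. Every panel spans the same number of log2 units. The HG arrays lie above the DPF arrays for both EGR1 probe sets, and FOS and ATF3 stay below 2.8 on every array.

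The FOS probe set lay between 2.33 and 2.48 and the ATF3 probe set between 2.77 and 2.78 on the 8 arrays. FOS is the partner of JUN in the AP-1 dimer and ATF3 a stress-induced factor of the same bZIP class. Both probe sets were below the limit on every array, so neither gives a difference between groups. Array medians over all probe sets were 2.76 to 2.79, so the ATF3 probe set sat at the level of a typical undetected probe set.

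EGR1 was read by 2 probe sets, called A and B here, and the name of probe set B ends in the suffix that marks probes able to match several transcripts. The levels with probe set A were 7.43 and 7.29 in DPF+, 7.31 and 6.55 in DPF-, 8.76 and 8.43 in HG+, and 7.49 and 8.03 in HG-. With probe set B they were 4.93 and 4.94 in DPF+, 4.72 and 3.87 in DPF-, 6.28 and 6.33 in HG+, and 5.27 and 6.56 in HG-. With either probe set every DPF array was below every HG array, although the gap was narrow for probe set A, where the highest DPF array was at 7.43 and the lowest HG array at 7.49. DPF- replicate 2 was the lowest of the 8 arrays with both probe sets, and HG- replicate 1 the lowest of the HG arrays. With probe set B the DPF arrays were near the limit of 4, and DPF- replicate 2, at 3.87, was under it.

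Probe set A averaged 7.14 ± 0.40 in DPF and 8.18 ± 0.55 in HG (SD, n = 4 each). The log2 difference, DPF minus HG, was -1.03 ± 0.22 (SE), a 2.05-fold lower level (limma, adjusted p = 0.0253). For probe set B the means were 4.62 ± 0.51 and 6.11 ± 0.57 (SD, n = 4 each). Its log2 difference was -1.49 ± 0.31 (SE), a 2.82-fold lower level (limma, adjusted p = 0.0234). In this comparison 12.5% of all tested probe sets were called (1145 lower and 443 higher in DPF), 29.7% had an unadjusted p under 5%, and 16.5% had all DPF arrays below all HG arrays. In bulk RNA, fewer cells that express a gene and less of its RNA per cell cannot be told apart.

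The direction held with any 1 array left out, and the call did not. Each of these fits left 1 group with 1 array and took its variance from the other groups. The adjusted p-values therefore also shifted with that variance. Probe set A ran from -1.22 to -0.84 and probe set B from -1.82 to -1.17 (limma, adjusted p from 0.0150 to 0.116 and from 0.0144 to 0.0960). Both missed 5% without DPF- replicate 2 (-0.84 and -1.28), HG+ replicate 1 (-0.95 and -1.51), HG+ replicate 2 (-1.12 and -1.48) or HG- replicate 2 (-0.90 and -1.17), and probe set A also without HG- replicate 1 (-1.17). With no filter on low levels, which brings 38431 probe sets into the test, the adjusted p-values were 0.0875 and 0.0904.

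Other measures divided the same arrays. The 3′ probe sets of actin, GAPDH and EF1a exceeded their 5′ probe sets by a mean log2 difference of 1.54 ± 0.24 in DPF and 1.02 ± 0.06 in HG (SD, n = 4 each; exact permutation test, two-sided, p = 0.0286, the lowest p possible here). This difference, a sign of RNA integrity or of labelling length, was 1.24 to 1.75 in DPF and 0.94 to 1.07 in HG, with no overlap. COL1A2, a fibrillar collagen chain, was at 5.97, 4.68, 4.50 and 4.08 in DPF and at 8.93, 8.87, 8.01 and 8.51 in HG. It was the only one of 10 theca and stroma markers to pass, with COL1A1, COL3A1, DCN, LUM and ACTA2 among those below the limit. The mean of the 3 endothelial markers that passed, of 8, was 5.13 to 5.59 in DPF and 5.50 to 6.14 in HG, with VWF, TIE1, KDR, PECAM1 and TEK below the limit, that of the 13 granulosa markers 8.69 to 9.17 and 9.10 to 9.36, and that of the 7 oocyte markers 5.21 to 5.92 and 5.49 to 5.81. Their part in the EGR1 difference was not tested. The plot of RNA quality and cell type markers shows these values.

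**Figure D2:**
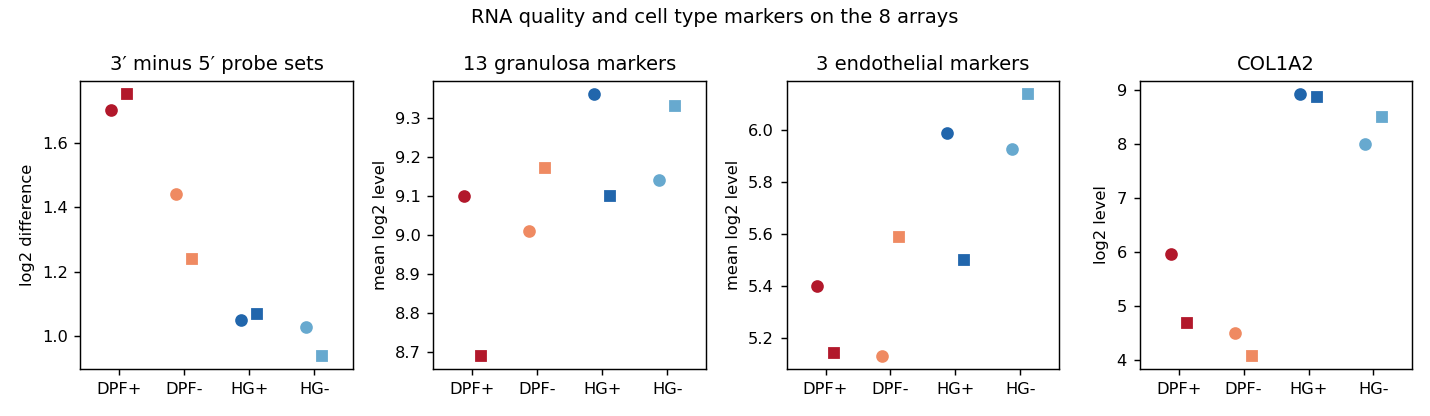
Mean 3′ minus 5′ log2 difference of actin, GAPDH and EF1a, mean log2 level of 13 granulosa and of 3 endothelial markers, and log2 level of COL1A2 on the 8 arrays by group (circle for replicate 1, square for replicate 2; each panel has its own axis, which does not start at 0). The 3′ minus 5′ difference and COL1A2 separate the 4 DPF from the 4 HG arrays and the + from the - arrays within each source, and the granulosa and endothelial means overlap.

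The EGR1 difference was larger with probe set B than with probe set A, and the same order was common elsewhere. Of 18 genes with several tested probe sets (EGR1 and the genes of the lists below), 15 had a lower DPF minus HG difference, on average, with their other probe sets than with the probe set of highest mean. Over all 2617 such genes on the array the share was 70.7%, with a median gap of -0.23.

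Between HG+ and HG-, EGR1 had the largest value of the members. With probe set A the mean was 8.59 ± 0.23 in HG+ and 7.76 ± 0.38 in HG- (SD, n = 2 each), and both HG+ arrays were above both HG- arrays. The log2 difference was 0.84 ± 0.31 (SE), the 28th smallest p of 12725 (limma, unadjusted p = 0.0276, adjusted p = 1.00). Probe set B did not separate the groups. Its HG- arrays stood at 5.27 and 6.56 on either side of the HG+ arrays, its difference was 0.39 ± 0.43 (SE), and without HG- replicate 1 it turned to -0.26. Between DPF+ and DPF- the difference was 0.43 ± 0.31 with probe set A and 0.64 ± 0.43 with probe set B (SE; limma, adjusted p = 0.908 and 0.906), and without DPF- replicate 2 these were 0.05 and 0.21. The quality and marker values differed between fertility groups too. The 3′ minus 5′ difference was 1.70 and 1.75 in DPF+ against 1.44 and 1.24 in DPF-, and 1.05 and 1.07 in HG+ against 1.03 and 0.94 in HG-. COL1A2 was likewise higher on both + arrays than on both - arrays of each source. These separations also stand beside the fertility contrasts of the genes described next, and their part in any of them was not tested.

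JUN, the AP-1 partner of FOS, varied least of the detected members between DPF and HG. Its levels were 9.82 and 9.88 in DPF+, 9.71 and 9.61 in DPF-, 10.11 and 9.82 in HG+, and 9.54 and 10.06 in HG-. Both DPF+ arrays were above both DPF- arrays, while the HG groups overlapped. The log2 difference was -0.13 for DPF against HG (95% interval -0.49 to 0.23), 0.19 for DPF+ against DPF- (-0.32 to 0.70) and 0.17 for HG+ against HG- (-0.34 to 0.67). The last turned to -0.10 without HG- replicate 1.

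MYC, a transcription factor that drives growth and division, and DUSP1, the phosphatase that switches off MAP kinases, shared a pattern across the DPF arrays that did not follow the groups. MYC was at 6.51 and 7.60 in DPF+, 7.10 and 6.38 in DPF-, 7.59 and 7.53 in HG+, and 7.25 and 7.45 in HG-. DUSP1 was at 7.12 and 8.73 in DPF+, 7.71 and 7.14 in DPF-, 8.13 and 8.41 in HG+, and 8.28 and 8.17 in HG-. In both genes DPF+ replicate 2 was the highest of all 8 arrays, DPF- replicate 1 came next among the DPF arrays, and DPF+ replicate 1 and DPF- replicate 2 were the lowest. The DPF+ replicates differed by 1.61 in DUSP1 and by 1.09 in MYC, where the median over the tested probe sets was 0.51, and the gap of DUSP1 was larger than that of 97.2% of them. Over all tested probe sets DPF+ replicate 1 was closest to DPF- replicate 2 (Pearson r = 0.977). DPF+ replicate 2 was closer to DPF- replicate 1 (0.961) than to DPF+ replicate 1 (0.927) or DPF- replicate 2 (0.928). The DPF- replicates correlated at 0.972. A split of the DPF arrays was thus not particular to MYC and DUSP1.

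The DPF+ minus DPF- difference of these genes changed sign with DPF+ replicate 2. It was 0.32 ± 0.38 for MYC and 0.50 ± 0.47 for DUSP1 (SE). It turned to -0.23 and -0.30 without that array, and reached 0.86 and 1.31 without DPF+ replicate 1. Either fit left DPF+ with 1 array, so it holds no spread within that group. MYC also turned, to -0.04, without DPF- replicate 2. Whether limma called DUSP1 between DPF+ and DPF- depended on which array was left out. On the HG arrays the levels were tight, 7.25 to 7.59 for MYC and 8.13 to 8.41 for DUSP1. The HG+ minus HG- difference was 0.21 ± 0.38 and 0.04 ± 0.47, with SEs that take in the spread of the DPF arrays. For DPF against HG the difference was -0.56 ± 0.27 for MYC and -0.57 ± 0.34 for DUSP1 (SE; limma, adjusted p = 0.213 and 0.299). Without DPF+ replicate 2, which left DPF+ with 1 array, these were -0.83 and -0.97. Without DPF+ replicate 1 they were -0.28 and -0.17. Whether limma called MYC and DUSP1 lower in DPF thus depended on which array was left out. The variance of these fits came from the other groups.

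CCN2, a secreted matricellular protein also known as connective tissue growth factor, had values of opposite sign in the fertility contrasts. Its levels were 10.41 and 10.06 in DPF+, 10.62 and 10.77 in DPF-, 11.17 and 11 in HG+, and 10.83 and 10.76 in HG-. Both DPF+ arrays were below both DPF- arrays, and both HG+ arrays above both HG- arrays. The log2 difference was -0.46 ± 0.18 for DPF+ against DPF- and 0.29 ± 0.18 for HG+ against HG- (SE; limma, adjusted p = 0.788 and 1.00). Leaving out DPF+ replicate 2 gave -0.28 for the first, and leaving out replicate 1 gave -0.63. The difference between the contrasts was -0.75 ± 0.26 (SE; limma, unadjusted p = 0.0197, adjusted p = 0.999), and 2.86% of all probe sets had an unadjusted p under 5% there.

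For DPF against HG, CCN2 averaged 10.46 ± 0.31 and 10.94 ± 0.18 (SD, n = 4 each). The difference of -0.48 ± 0.13 (SE) lay at the edge of the test (limma, adjusted p = 0.0503) and moved to either side of it with the setting. Limma called it with median centring (adjusted p = 0.0440) and quantile normalization (0.0471). With the other settings the adjusted p stayed above 5%, up to 0.0890. With 1 array left out, which leaves 1 group with 1 array, the difference ran from -0.56 to -0.39. Its side of 5% then depended on the array. The HG- arrays, at 10.83 and 10.76, overlapped with DPF- replicate 2.

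**Figure D3:**
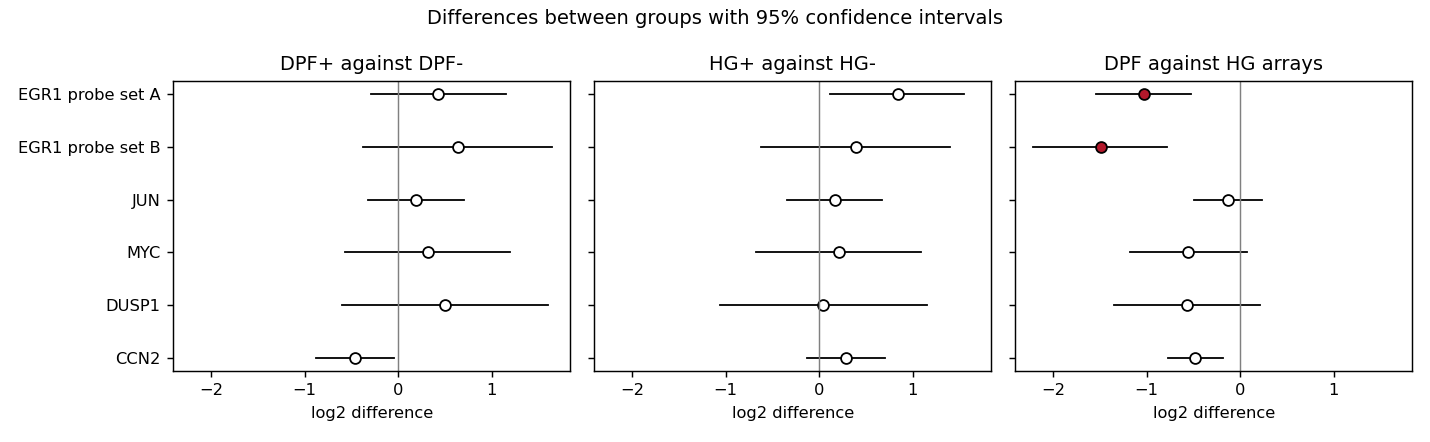
Log2 differences between groups for the 6 tested probe sets (points, first-named group minus second) with 95% confidence intervals from limma (lines); red points passed an adjusted p of 5%. Both EGR1 probe sets passed for DPF against HG, and no member passed between fertility groups.

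Counted over the 6 probe sets, all had a negative difference for DPF against HG, where 58.4% of all probe sets were negative. Represented by 1 probe set each, the 5 detected genes had a median of -0.56, against -0.06 over all 7042 genes. For HG+ against HG- all 6 were positive, where 45.7% of all probe sets were, and for DPF+ against DPF- 5 were positive, where 52.6% were. The medians over the 5 genes were 0.21 and 0.32, against -0.01 and 0.05 over all genes. Arrays did not overlap as higher in 3 probe sets for HG+ against HG- (EGR1 A, MYC and CCN2; 10.7% of all) and in 2 for DPF+ against DPF- (EGR1 B and JUN; 11.2% of all), and as lower in 1 for DPF+ against DPF- (CCN2; 12.1% of all). DPF against HG uses the same arrays as the fertility contrasts.

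Within a hen source the members did not vary as 1 group. With each level centred on the mean of the 4 arrays of its source, MYC and DUSP1 ran together over the 8 arrays (Pearson r = 0.92), as did EGR1 and JUN (0.76), while CCN2 ran against DUSP1 (-0.68) and MYC (-0.53). EGR1 and DUSP1 were close to unrelated (0.18). These are descriptions over 8 arrays of 10 pairs of genes. Which arrays were normalized together is not stated, and the DPF levels carry the split of the DPF arrays described above. The relations among MYC, DUSP1 and CCN2 rested on the DPF arrays. On the HG arrays MYC was highest in HG+ replicate 1 (0.13), where DUSP1 was lowest (-0.12) and CCN2 highest (0.23). MYC was lowest there in HG- replicate 1 (-0.21), with DUSP1 at 0.03 and CCN2 at -0.11. CCN2 and MYC were both higher on the HG+ than on the HG- arrays. The plot of members centred within each hen source shows the blocks.

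**Figure D4:**
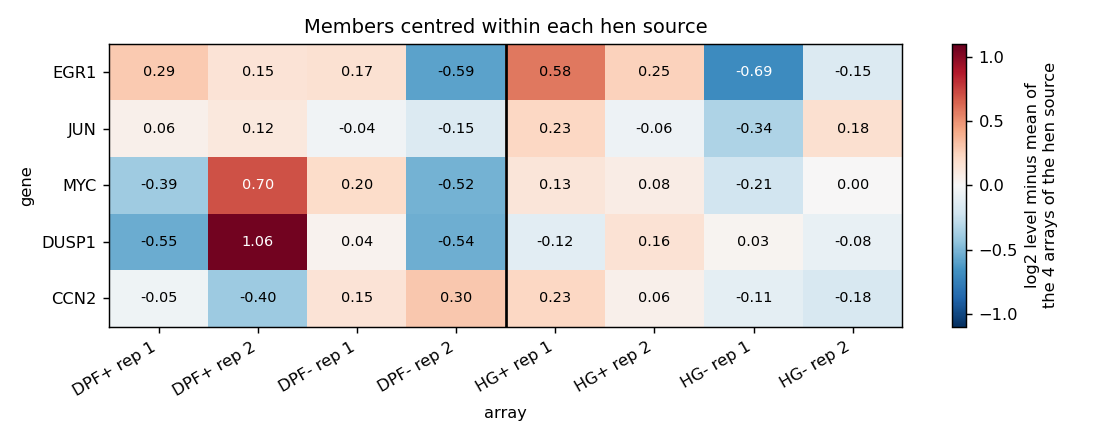
Log2 level of each detected member minus its mean over the 4 arrays of the same hen source, by array (EGR1 with probe set A). DPF+ replicate 2 is high for MYC and DUSP1 (0.70 and 1.06) and low for CCN2 (-0.40), and HG- replicate 1 is low for EGR1 and JUN (-0.69 and -0.34).

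The genes nearest to EGR1 by this measure, among 7037 others, were LRSAM1 (r = 0.964), TMEM47 (0.954), NAA25 (0.926), ACO1 (0.919) and CDC14A (0.905). Their ranges were smaller than that of EGR1. LRSAM1, for example, was under the limit on the DPF arrays (3.27 to 3.64) and ran from 4.17 in HG- replicate 1 to 4.62 in HG+ replicate 1. The genes nearest to the mean of the 5 detected members were PLK2 (0.976), ZNF512 (0.963), HPRT1 (0.961), EIF4E (0.943) and KANSL2 (0.942). PLK2, a polo-like kinase that is itself an early response gene, was at 5.23 and 5.78 in DPF+, 5.56 and 4.94 in DPF-, 6.06 and 5.81 in HG+, and 5.51 and 5.81 in HG-. On the DPF arrays its order was that of MYC, and on the HG arrays its highest and lowest were those of EGR1 probe set A. PLK2 was picked for its closeness to a mean that includes MYC and EGR1, so this likeness follows from the choice.

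Genes around the members were read from 5 lists. Of the 52 genes that passed the filter, each taken by its probe set of highest mean, 5 were called for DPF against HG, 2 higher and 3 lower in DPF, where 8.34% of all 7042 genes were called (3.18% higher and 5.15% lower). Arrays did not overlap in 8.51% of all genes as higher and 12.2% as lower for DPF against HG, in 11.3% and 9.19% for DPF+ against DPF-, and in 10.8% and 13.7% for HG+ against HG-. No list gene was called between fertility groups, as was the case for all genes. Each count above takes 1 probe set a gene. Several tested probe sets were present for 18 genes, counting EGR1, and some of the other probe sets were called too. That of RHOB was called lower, as was its probe set of highest mean. BTG2, an antiproliferative gene, was lower in DPF by -1.62 with its other probe set and had -0.49 with the one of highest mean (limma, adjusted p = 0.00385 and 0.104). Other probe sets of MAP2K1 (-1.28), MXI1 (-0.84), TEAD4 (-0.75) and ERRFI1 (-0.76, under the limit in both group means) were also called lower. Those of highest mean were not called, at -0.45 for MAP2K1, -0.02 for TEAD4, 0.03 for ERRFI1 and 0.29 for MXI1. That of MXI1 had all DPF arrays above all HG arrays, and a further MXI1 probe set gave -0.09. Counted by probe set, 12.5% of all tested were called. The plot of genes around the immediate early response shows the 52 differences.

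**Figure D5:**
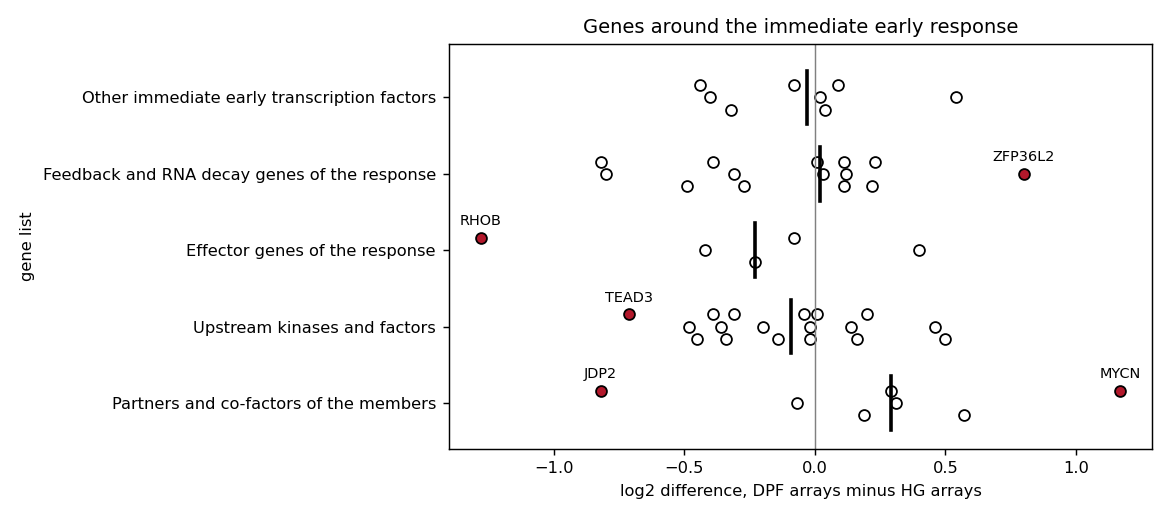
Log2 difference, DPF minus HG arrays, of the 52 detected genes of the 5 lists (points, spread vertically for legibility), with the median of each list as a black bar. The red points are the 5 genes that passed an adjusted p of 5%, from RHOB at -1.28 to MYCN at 1.17.

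Of the other immediate early transcription factors 15 of 24 were on the array and 8 passed the filter, with 0 called in any comparison and a DPF against HG median of -0.03. For DPF+ against DPF- their median was 0.33, with 7 of 8 positive, where 56.6% of all genes were. NFIL3, a bZIP repressor, was at 4.64 and 5.42 in DPF+ and 4.46 and 3.87 in DPF- (log2 difference 0.86, limma adjusted p = 0.725). Leaving out DPF+ replicate 2 gave 0.47, and leaving out replicate 1 gave 1.25. MAFF, a small Maf protein, was at 6.13 and 6.43 against 6.09 and 5.87 (0.30, adjusted p = 0.908). In both genes the groups did not overlap, and the higher DPF+ value was that of replicate 2. For HG+ against HG- the median was 0.02 and only TIPARP, an ADP-ribosyltransferase, did not overlap (-0.15, adjusted p = 1.00).

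Of the feedback and RNA decay genes 20 of 23 were on the array and 14 passed. ZFP36L2, which destabilises mRNAs with AU-rich elements, was the 1 called, at 8.61 and 8.35 in DPF+, 8.84 and 9.04 in DPF-, 7.82 and 7.65 in HG+, and 8.14 and 8.03 in HG-. All DPF arrays were above all HG arrays, a direction opposite to that of EGR1 (log2 difference 0.80 ± 0.14, SE; limma, adjusted p = 0.0137). Its difference was -0.46 for DPF+ against DPF- and -0.35 for HG+ against HG-, with no overlap in either and no call (limma, adjusted p = 0.802 and 1.00). The list median was 0.02 for DPF against HG. Of the 14 genes 8 had a positive and 6 a negative difference, from -0.82 to 0.80.

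For DPF+ against DPF- the list had a median of 0.15 with 10 of 14 positive, and SPRY2 (-0.62) and SPRED2 (0.65), both inhibitors of RAS signalling, had opposite signs (limma, adjusted p = 0.795 each). SPRED2 averaged 3.47 in DPF-, under the limit, and with that mean set to 4 its difference was 0.12. For HG+ against HG- the median was -0.03, with SPRED1 at -0.13. DUSP6, an ERK phosphatase, had group means under the limit in HG+ and HG-.

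Of the effector genes 11 of 14 were on the array and 5 passed. RHOB, a small GTPase of the endosome and cytoskeleton, was called lower, at 7.82 and 6.77 in DPF+, 7.77 and 7.40 in DPF-, 8.75 and 8.66 in HG+, and 8.47 and 8.98 in HG- (log2 difference -1.28 ± 0.25, SE; limma, adjusted p = 0.0207). All DPF arrays were below all HG arrays, as for EGR1. The other probe set of RHOB was called lower too, at -1.05 as fitted (limma, adjusted p = 0.0118). It averaged 3.16 in DPF, under the limit, and 4.21 in HG, and with the DPF mean set to 4 its difference was only -0.21. The list median was -0.23. PTGS2, the prostaglandin synthase of ovulation, was at 6.77 and 6.74 in DPF+ and 7.38 and 6.96 in DPF- (-0.42, adjusted p = 0.908). For HG+ against HG- SGK1, a kinase induced by serum and steroids, did not overlap (0.18, adjusted p = 1.00). The list medians were -0.15 for DPF+ against DPF- and 0.14 for HG+ against HG-.

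Of the upstream kinases and factors 24 of 32 were on the array and 18 passed, with a DPF against HG median of -0.09. TEAD3, a DNA-binding partner of YAP1, was the 1 called by the probe set of highest mean, at 4.50 and 4.84 in DPF+, 4.79 and 4.84 in DPF-, 5.30 and 5.19 in HG+, and 5.52 and 5.81 in HG- (log2 difference -0.71 ± 0.15, SE; limma, adjusted p = 0.0263). CCN2 is a known target of the YAP1 and TEAD complex in mammals. Both genes had a negative DPF minus HG difference, that of CCN2 (-0.48) not called. Unlike CCN2, TEAD3 had both HG+ arrays below both HG- arrays (-0.42, adjusted p = 1.00). TEAD4 had a DPF minus HG difference of -0.02 with its probe set of highest mean, not called, and -0.75 with its other one, called lower. A link of CCN2 with either TEAD gene was not tested. SRF, the serum response factor, had a DPF minus HG difference of -0.14 (adjusted p = 0.552). For DPF+ against DPF- the list median was 0.12, and arrays did not overlap as higher in 3 genes and as lower in 1. Those of smallest p were CREM (0.51), NRAS (-0.27) and RPS6KA3 (0.29), with no call. RPS6KA3 averaged 3.80 in DPF-, under the limit, and with that mean set to 4 its difference was 0.10. For HG+ against HG- the median was 0.02.

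Of the partners and co-factors 11 of 17 were on the array and 7 passed, with 2 called and a DPF against HG median of 0.29. MYCN, a paralog of MYC, was at 5.16 and 4.89 in DPF+, 5.26 and 6.23 in DPF-, 3.94 and 3.92 in HG+, and 5.01 and 4.0 in HG-. It was higher in DPF (log2 difference 1.17 ± 0.29, SE; limma, adjusted p = 0.0388), opposite in sign to MYC, although HG- replicate 1 lay within the DPF range. Its other probe set gave 0.39 (adjusted p = 0.378) and the mean of both 0.78 (0.0769), so the call rests on 1 probe set. JDP2, a bZIP partner and repressor of JUN, was at 3.62, 4.46, 3.80 and 4.04 in DPF and at 4.62, 4.79, 4.86 and 4.93 in HG (limma, adjusted p = 0.0409). Its DPF mean of 3.98 was under the limit, and with that mean set to 4 the difference was -0.80. For DPF+ against DPF- the median was -0.08, with MYCN at -0.72 (-0.24 without DPF- replicate 2), MLX at -0.10 and MXD1 at 0.05 without overlap. For HG+ against HG- it was 0.04, with MYCN at -0.58 as fitted (-0.50 or lower counted from 4, its HG+ mean being under the limit, and -0.07 as fitted without HG- replicate 1), MXD1 at 0.21 and JDP2 at -0.19 without overlap.

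A fit with 1 array left out has 1 array in that group and takes its variance from the other groups. The 5 calls depended on which arrays were in the fit. Leaving out any 1 HG array ended every one of them, as did leaving out DPF- replicate 2, and TEAD3 and JDP2 also missed 5% without DPF- replicate 1. With no filter the calls of RHOB (adjusted p = 0.0830), TEAD3 (0.0521), MYCN (0.124) and JDP2 (0.104) ended. Array weights ended that of MYCN (0.0860), and quantile normalization (0.0646) and the fit on gene means (0.0511) that of JDP2, which has 1 probe set. The replicate number as a block ended the calls of TEAD3 (0.0511) and MYCN (0.0701). The sign of each was the same in all of these fits.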

How the data were processed

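The deposited values are log2 levels per probe set. Per the submitters' processing notes the authors used GCRMA, which corrects background, normalizes arrays to each other and summarises probes; its version, and whether the 8 arrays were run as 1 set, are not stated. From the 38535 probe sets, 96 AFFX controls and 8 probe sets with a blank value (6 on each DPF array, 2 on each HG array) were left out, and 12725 passed the filter. Symbols were updated by gene ID through the RefSeq gene table of GRCg7b, and 10602 tested probe sets had 1 gene, 57 several and 2066 none.

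The 4 groups were fitted together in limma 3.58.1 (R 4.3.3; lmFit, eBayes with an intensity trend, two-sided, 4 residual and 3.68 prior degrees of freedom), with Benjamini-Hochberg adjustment over the 12725. The code was tested on simulated data. The number of arrays limits the precision. Alternatives were no filter, a filter at 6, median centring, quantile normalization, no trend, robust eBayes, array weights, the replicate number as a block, only the 4 arrays of a contrast, the mean of a gene's probe sets, and each array left out. List genes were named when called, or else up to 3 of smallest p without overlap per list and comparison. The members, lists and tests were chosen with earlier results of these data known.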

Additional observations from a re-analysis of the deposited data

Results flagged for a closer look

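EGR1 probe set A on the DPF arrays had 1 array far from the others. DPF- replicate 2, at 6.55, lay below 7.29, 7.31 and 7.43, and the gap to the nearest array was 0.841 of the whole range, above Dixon's 95% critical value for 4 arrays. Of 12 such checks (6 probe sets on the DPF and on the HG arrays) this was the 1 that passed. Chance passes about 5% of them if the 4 arrays come from 1 population. Each check pooled the + and the - arrays of a source, so that rate need not hold. With probe set B, DPF- replicate 2 gave 0.794.

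CCN2 had its DPF+ arrays below the DPF- arrays and its HG+ arrays above the HG- arrays. The difference between these contrasts was -0.75 on the log2 scale, with a limma adjusted p of 0.999. It ran from -0.92 to -0.57 with 1 array left out.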

How the results depend on the processing

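With no filter, 10 probe sets passed 5% for DPF+ against DPF-, 1 for HG+ against HG-, 1 for the difference between the contrasts and 1045 for DPF against HG, against 0, 0, 0 and 1588 with the filter. The DPF against HG count was 549 with the filter at 6. A replicate block brought it to 870. With 1 array left out it ran from 174 (without HG- replicate 2) to 4846 (without DPF+ replicate 2), and the DPF+ against DPF- count from 0 to 1070. EGR1 missed 5% with no filter (-1.03 for probe set A, -1.49 for B), and probe set B with array weights (-1.50, adjusted p = 0.0634). CCN2 passed for DPF against HG with median centring (-0.49) and quantile normalization (-0.46). The difference between the contrasts was -0.08 for EGR1 as the mean of both probe sets. That is opposite in sign to probe set B (0.25) and of the same sign as probe set A (-0.41). It is the value of their average, so probe set B itself did not turn. The other 222 of 228 member values under these settings kept their sign and their side of 5%.

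With 1 array left out, 161 of 192 member values did so. For DPF against HG the ranges were -1.22 to -0.84 (EGR1 A), -1.82 to -1.17 (EGR1 B), -0.26 to 0.00 (JUN), -0.83 to -0.28 (MYC), -0.97 to -0.17 (DUSP1) and -0.56 to -0.39 (CCN2). For DPF+ against DPF- they were -0.23 to 0.86 (MYC) and -0.30 to 1.31 (DUSP1), and for HG+ against HG- -0.26 to 1.03 (EGR1 B), -0.10 to 0.42 (JUN) and -0.09 to 0.19 (DUSP1). The difference between the contrasts ran from -0.39 to 0.90 (EGR1 B), -0.23 to 0.29 (JUN), -0.44 to 0.65 (MYC) and -0.35 to 1.26 (DUSP1). The 3′ minus 5′ gap between DPF and HG ran from 0.444 to 0.614. The 5 list genes called for DPF against HG missed 5% in 10 of 42 fits under other settings and in 27 of 40 with 1 array left out. For NFIL3 the DPF+ against DPF- difference ran from 0.47 to 1.25 with 1 array left out.

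Arrays of the same number tended to deviate in opposite directions from their group means (r = -0.52 in DPF, -0.19 in HG). These values do not show what, if anything, arrays of the same number shared. The replicate block changed no member call, and ended those of TEAD3 and MYCN among the list genes. Crossing the numbers, chosen after these values were seen, gave 3 calls for DPF+ against DPF- and 0 for HG+ against HG-.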
